A study of Mus musculus with 10 samples.

Results

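The cytosolic ribosomal protein genes encode the protein shell of the ribosomes that work in the cytoplasm. They were taken as every gene of the deposited normalized table whose symbol has the form Rpl or Rps with a number and at most a short suffix, or is Rplp0, Rplp1, Rplp2 or Rpsa. Pseudogene names ending in -ps and the Rps6k kinases were left out, and so were genes with a mean raw level under 5 CPM, the counts of a gene scaled to the library total. Of 85 matching genes 80 passed this level, 48 of the large (60S) subunit by symbol and 32 of the small (40S) subunit, out of 21862 genes in that table. Just inside the limit were Rpl24 with a mean of 5.90 raw CPM, Rps27l with 16.0 and Rpl13a with 21.6. Just outside were Rps3a2 with 1.11, Rps3a3 with 0.861 and Rpl6l with 0.663 raw CPM, followed by Rpl3l and Rpl39l. All 80 genes passed the filter on low counts and were tested in every comparison.

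RNA was sequenced from cultured cortical neurons of wild-type C57BL/6J mouse embryos at E16.5. The 4 groups were neurons infected with a lentivirus for the histone variant H2BE and given BDNF (H2BE-BDNF), the same virus without BDNF (H2BE), control lentivirus with BDNF (BDNF), and control lentivirus without BDNF (Control). H2BE was driven by a constitutive promoter and not by one specific to neurons. BDNF is brain-derived neurotrophic factor, which signals through the receptor TrkB, and RNA was taken 24 h later. All cultures received 0.5 µM AraC, an agent against dividing cells, at 3 to 4 days in vitro. In both the Control and the BDNF group, replicate 3 exceeded replicate 1 at 0 of 48526 genes, so replicate 3 was not counted as a separate sample. This left 8 libraries, 2 per group: replicates 1 and 2 under the control virus, and replicates 2 and 3 under the H2BE virus. Virus and replicate number are thus partly confounded, and their parts in a comparison between the viruses cannot be fully told apart. The labels do not say whether the libraries are separate cultures. P-values therefore reflect the spread between these libraries, which may be technical.

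Ribosomal proteins are made in the cytoplasm, and most are carried into the nucleus and joined to ribosomal RNA in the nucleolus, while some join the ribosome later. Many of their mRNAs begin with an unbroken run of pyrimidines, the 5′ terminal oligopyrimidine tract, through which the kinase complex mTORC1 and the protein Larp1 set how much of the mRNA is translated. BDNF is known to activate mTORC1 and protein synthesis in neurons, where ribosomal protein mRNAs are also found in axons and dendrites.

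Library totals ran from 5058074 to 14142545 counts. H2bc21, the gene that encodes H2BE, had 32.1 and 35.2 CPM in the H2BE-BDNF libraries, 42.9 and 35.7 in H2BE, 3.69 and 4.07 in BDNF, and 5.19 and 5.24 in Control, as the labels give it. The 11 neuron markers summed to 5924 to 6476 CPM over all 8 libraries, but single markers moved in opposite directions with BDNF. In H2BE-BDNF against H2BE 3 of the 11 rose and 6 fell in edgeR's quasi-likelihood test, at a p adjusted over all genes under 0.05. Map2 changed by 0.35 (adjusted p = 2.28e-05), Tubb3 by -0.36 (adjusted p = 5.74e-05), Neurod6 by -0.54 (adjusted p = 0.000148) and Rbfox3 by -0.66 (adjusted p = 1.15e-05) in log2. In BDNF against Control 3 rose and 4 fell, and these 4 genes had the same direction. Summed microglial markers reached 22.2 to 23.2 CPM in H2BE-BDNF, 5.34 to 6.78 in H2BE, 22.0 to 23.3 in BDNF and 9.15 to 9.97 in Control libraries, and Cd68 made up most of these sums. Progenitor markers, led by Vim, summed to 237 to 242 CPM in H2BE-BDNF, 106 to 108 in H2BE, 232 to 239 in BDNF and 114 to 120.5 in Control libraries. Oligodendrocyte lineage markers, led by Mbp, summed to 83.8 to 86.9, 47.05 to 51.6, 75.2 to 82.7 and 43.8 to 46.7 CPM in the same 4 groups. None of the markers was at 0 in the sum of the 8 libraries. However, Sox10, Tmem119, Cldn5 and Cdh5 were at 0 in most libraries and at no more than 0.528 CPM in the rest. These 3 sums were higher with BDNF under both viruses, but the other markers of these lists did not all rise. Of 7 oligodendrocyte lineage markers tested, 1 was called up in each BDNF comparison, Mbp. Of 3 microglial markers tested, 1 was called up in BDNF against Control, Cd68, and 2 in H2BE-BDNF against H2BE, Cd68 and Aif1. Aif1 changed by 2.95 in the latter (adjusted p = 0.0215 in edgeR's test), from only 0.141 and 0.198 CPM in the H2BE libraries. In BDNF against Control it changed by -0.75 and was not called. The third, C1qa, changed by -0.45 in BDNF against Control and 0.33 in H2BE-BDNF against H2BE, called in neither. Of 8 progenitor markers 5 rose in BDNF against Control, while Eomes changed by -0.99 (adjusted p = 0.00822 in the same test). Astrocyte markers summed to 55.5 to 56.1 CPM in H2BE-BDNF, 63.9 to 69.95 in H2BE, 62.2 to 97.9 in BDNF and 65.6 to 74.5 in Control libraries, and vascular markers to 54.9 to 57.0, 58.65 to 71.6, 48.25 to 52.5 and 58.5 to 66.2 CPM. The part of these cell types in the results below was not tested. In bulk samples fewer cells of a type and less RNA per cell cannot be told apart.

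Start sites are shown for 8 of the genes that the comparisons turn on, because the pyrimidine tract is the feature by which this family is known. Each line gives 40 bases before the annotated start and 25 bases from the start on, 5′ to 3′ in the direction of transcription, from RefSeq on the build GRCm38.p6. Capitals mark the longest run of a C followed by at least 7 further C or T near the start, and in Rpl31 also the letters CCGGAAGT, the core site of the ETS family of transcription factors. The run lies wholly before the annotated start in Rpl31, Rpl4 and Rps15a, where it begins at positions -18, -17 and -15. In Rpl22l1 it begins at position 4 after the start. A marked run is therefore not always the 5′ end of the annotated mRNA.
Rpl7a, chr2:26910767-26910831, plus strand: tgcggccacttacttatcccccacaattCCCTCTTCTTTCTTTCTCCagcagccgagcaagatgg
Rpl4, chr9:64173347-64173411, plus strand: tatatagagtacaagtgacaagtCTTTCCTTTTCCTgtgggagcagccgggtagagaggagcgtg
Rpl14, chr9:120571477-120571541, plus strand: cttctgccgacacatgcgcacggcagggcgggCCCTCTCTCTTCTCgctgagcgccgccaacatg
Rpl31, chr1:39367811-39367875, plus strand: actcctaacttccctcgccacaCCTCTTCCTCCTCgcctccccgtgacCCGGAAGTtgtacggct
Rpl22l1, chr3:28805468-28805532, plus strand: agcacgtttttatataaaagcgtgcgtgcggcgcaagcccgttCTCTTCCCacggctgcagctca
Rpl12, chr2:32961672-32961736, plus strand: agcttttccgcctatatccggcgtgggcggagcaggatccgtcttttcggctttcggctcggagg
Rpl15, chr14:18270962-18271026, minus strand: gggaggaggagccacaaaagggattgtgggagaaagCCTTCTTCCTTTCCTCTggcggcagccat
Rps15a, chr7:118116123-118116187, minus strand: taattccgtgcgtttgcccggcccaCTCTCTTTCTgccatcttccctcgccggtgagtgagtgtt

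The table of starts held 60 of the 80 genes. On the sense strand, from 30 bases before to 30 after the start, 33 of these 60 (55.0%) had such a run of at least 8 letters, against 20.6% of all 27025 genes with a start window. The letters CCGGAAGT were found on either strand within 250 bases before and 50 after the start in 12 of 60 genes (20.0%), against 4.31% of all genes. AAGATGGC, the core of the YY1 site, was found in 10% against 3.19%, the E-box CACGTG in 10% against 8.09%, and the TATA box letters TATAAA in 11.7% against 15.7%. The windows of the 2 kinds of search overlap near the start, and a match is a description of the letters only.

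Summed over the 80 genes, ribosomal protein RNA stood lowest in the neurons with the H2BE virus and no BDNF. The sum was 13597 and 13449 CPM in the H2BE-BDNF libraries, 10931 and 10940 in H2BE, 13302 and 12569 in BDNF, and 13112 and 12065 in Control. The 2 H2BE libraries lay below all other libraries, while BDNF and Control overlapped. As group means this was 13523 ± 105 CPM in H2BE-BDNF, 10936 ± 6.25 in H2BE, 12935 ± 518 in BDNF and 12588 ± 740 in Control (SD, n = 2 each). The H2BE mean was the lowest of the 4 for 73 of the 80 genes, and the H2BE-BDNF mean the highest for 54. The order of the group means was not counted over all tested genes, so these counts have no share to be read against. For such sums an exact two-sided permutation test of 2 libraries against 2 cannot go below p = 0.333, the value found for H2BE-BDNF against H2BE, H2BE against Control and H2BE-BDNF against BDNF. For BDNF against Control it was 0.667.

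**Figure D1:**
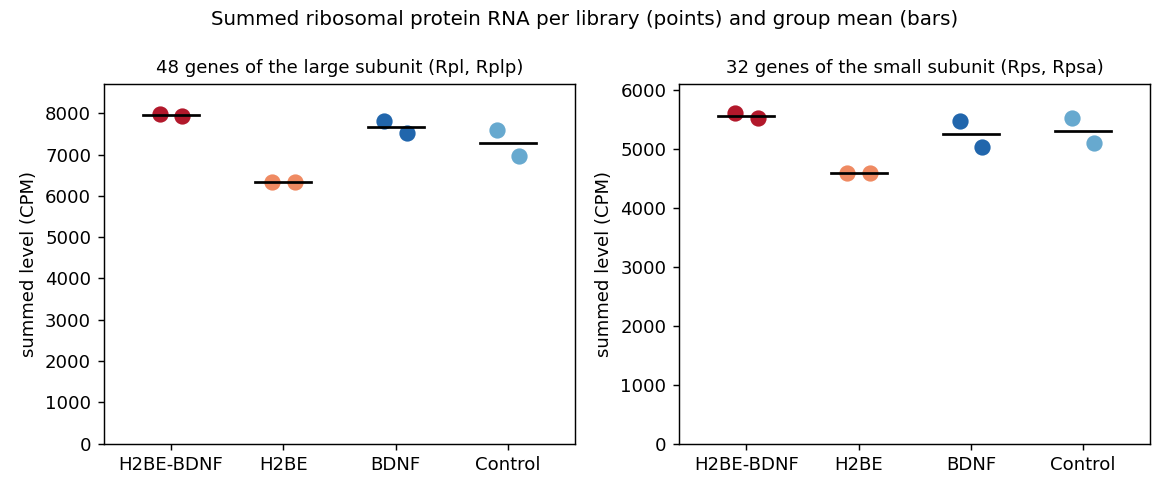
Summed level of the large-subunit genes (left) and small-subunit genes (right), in CPM on an axis from 0, for each of 8 libraries (points) in the groups H2BE-BDNF, H2BE, BDNF and Control, with the group mean as a bar. In both panels the 2 H2BE points lie below those of the other 3 groups.

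Compared per kilobase of transcript, the highest mean level belonged to Rpl41, the shortest ribosomal protein, at 881 CPM per kb. It was followed by Rplp1 of the ribosomal stalk at 696, Rps2 at 470, Rps15 at 443 and Rpl32 at 341 CPM per kb. The lowest levels per kb were those of Rpl24 at 9.0, Rpl13a at 20.5, Rps15a at 29.5, Rps27l at 32.1 and Rps20 at 39.9 CPM per kb. Rps15a and Rps20 were divided by transcript models of 5130 and 3706 bases, against a median of 751 bases over the 80 genes, so their levels per kb depend on that choice. Ribosomal protein genes also have many near-identical processed copies, and reads that fit several copies may have been dropped or split, so levels between these genes are uncertain. The 91 genes named as their pseudogenes held between 0.196% and 0.359% as many counts as the 80 genes in a library.

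The first comparison asks how BDNF acted in neurons with the H2BE virus. In H2BE-BDNF against H2BE, 65 of 80 ribosomal protein genes rose and 0 fell, where 13.4% of 13452 tested genes were called up and 12.3% down. A call means an adjusted p (Benjamini-Hochberg) under 0.05 in edgeR's quasi-likelihood test. The rise was small and even: the median log2 fold change was 0.33, or 1.26-fold, with quartiles of 0.24 and 0.41, against a median of 0.00 over all tested genes. The large subunit had 39 of 48 genes up with a median of 0.35, and the small subunit 26 of 32 with a median of 0.30. For 75 of 80 genes both H2BE-BDNF libraries lay above both H2BE libraries, as was so for 32.1% of all genes.

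Rpl7a, a large-subunit protein, had the smallest p. It had 284 and 293 CPM in H2BE-BDNF against 210 and 215.5 CPM in H2BE libraries. The groups were well apart, with a log2 fold change of 0.44 ± 0.05 (SE) and an adjusted p of 1.97e-05. Rpl12, which lies at the base of the stalk, had 216 and 195 CPM in H2BE-BDNF against 134 and 141 CPM in H2BE libraries, a log2 change of 0.58 ± 0.08 (adjusted p = 3.74e-05). Rpl18 had 156 and 168 CPM in H2BE-BDNF against 115 and 117 in H2BE libraries, a log2 change of 0.48 ± 0.07 (adjusted p = 7.12e-05). The values of the 2 groups did not overlap for either gene.

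Rpl4 and Rpl17 both reach into the tunnel through which the new protein leaves. Rpl4 had 575 and 577 CPM in H2BE-BDNF against 428 and 473 in H2BE libraries, a log2 change of 0.36 ± 0.05 (adjusted p = 0.000129). Rpl17 had 173 CPM in both H2BE-BDNF libraries against 127 and 129 in H2BE libraries, a log2 change of 0.43 ± 0.07 (adjusted p = 0.000191). Rpl14 had 144 and 136.5 CPM in H2BE-BDNF against 103 and 96.85 in H2BE libraries, a log2 change of 0.49 ± 0.08 (adjusted p = 0.000183). These 6 genes remained called whichever of the 8 libraries was left out.

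Several ribosomal proteins with known further roles rose as well. Rps6, the target of the S6 kinases below mTORC1, rose with 95.6 and 91.2 CPM in H2BE-BDNF against 70.7 and 63.7 in H2BE libraries, a log2 change of 0.47 ± 0.09 (adjusted p = 0.00159). Rpl11 and Rpl5, which bind 5S rRNA and can hold back Mdm2 when they are not in a ribosome, both rose. Rpl11 changed by 0.39 ± 0.09 in log2 (adjusted p = 0.00408), and Rpl5 by 0.35 ± 0.10 (adjusted p = 0.0137). The call of Rpl5 was lost without H2BE-BDNF replicate 2 (0.31), H2BE replicate 2 (0.40) or H2BE replicate 3 (0.31). Rps27a, which is made as a fusion with ubiquitin, rose by 0.35 ± 0.07 (adjusted p = 0.00145).

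The stalk that draws elongation factors to the ribosome is built of Rplp0, Rplp1 and Rplp2. Rplp2 rose, with 126 and 117 CPM in H2BE-BDNF against 92.6 and 94.7 in H2BE libraries, a log2 change of 0.38 ± 0.08 (adjusted p = 0.0032). Rplp0, its anchor, had 425 and 433 CPM in H2BE-BDNF against 367 and 398 in H2BE libraries, a log2 change of 0.17 ± 0.05 (adjusted p = 0.0277). Rplp1 had 363 and 362 CPM in H2BE-BDNF against 329 and 305 in H2BE libraries, and at 0.19 ± 0.07 it missed the threshold (adjusted p = 0.058). Rplp0 had an adjusted p of 0.0518 in DESeq2, was called in 3 of 8 fits with 1 library left out, and its change was 0.10 without H2BE replicate 2. It also lost its call without H2BE-BDNF replicate 2 (0.18), H2BE-BDNF replicate 3 (0.16), Control replicate 1 (0.17) or Control replicate 2 (0.17).

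The 15 genes that missed the threshold were not all alike. Rpsa, also known as a laminin receptor, had a log2 change of 0.19 (adjusted p = 0.0511), Rpl36a 0.30 (0.0546 adjusted) and Rps14 0.23 (0.0552 adjusted), each with both H2BE-BDNF libraries above both H2BE libraries. Rpl24 and Rpl13a, among the genes with the fewest counts, had changes of 0.42 ± 0.24 and 0.22 ± 0.13. Among the smallest changes, Rpl22 changed by -0.04 (adjusted p = 0.675), Rps15a by 0.05 (0.629), Rps27l by -0.14 (0.601) and Rpl7l1 by 0.09 (0.517). Rps15a had 155 and 149 CPM in H2BE-BDNF against 142 and 152 in H2BE libraries, which overlap. A p above the threshold does not show that these levels were equal.

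**Figure D2:**
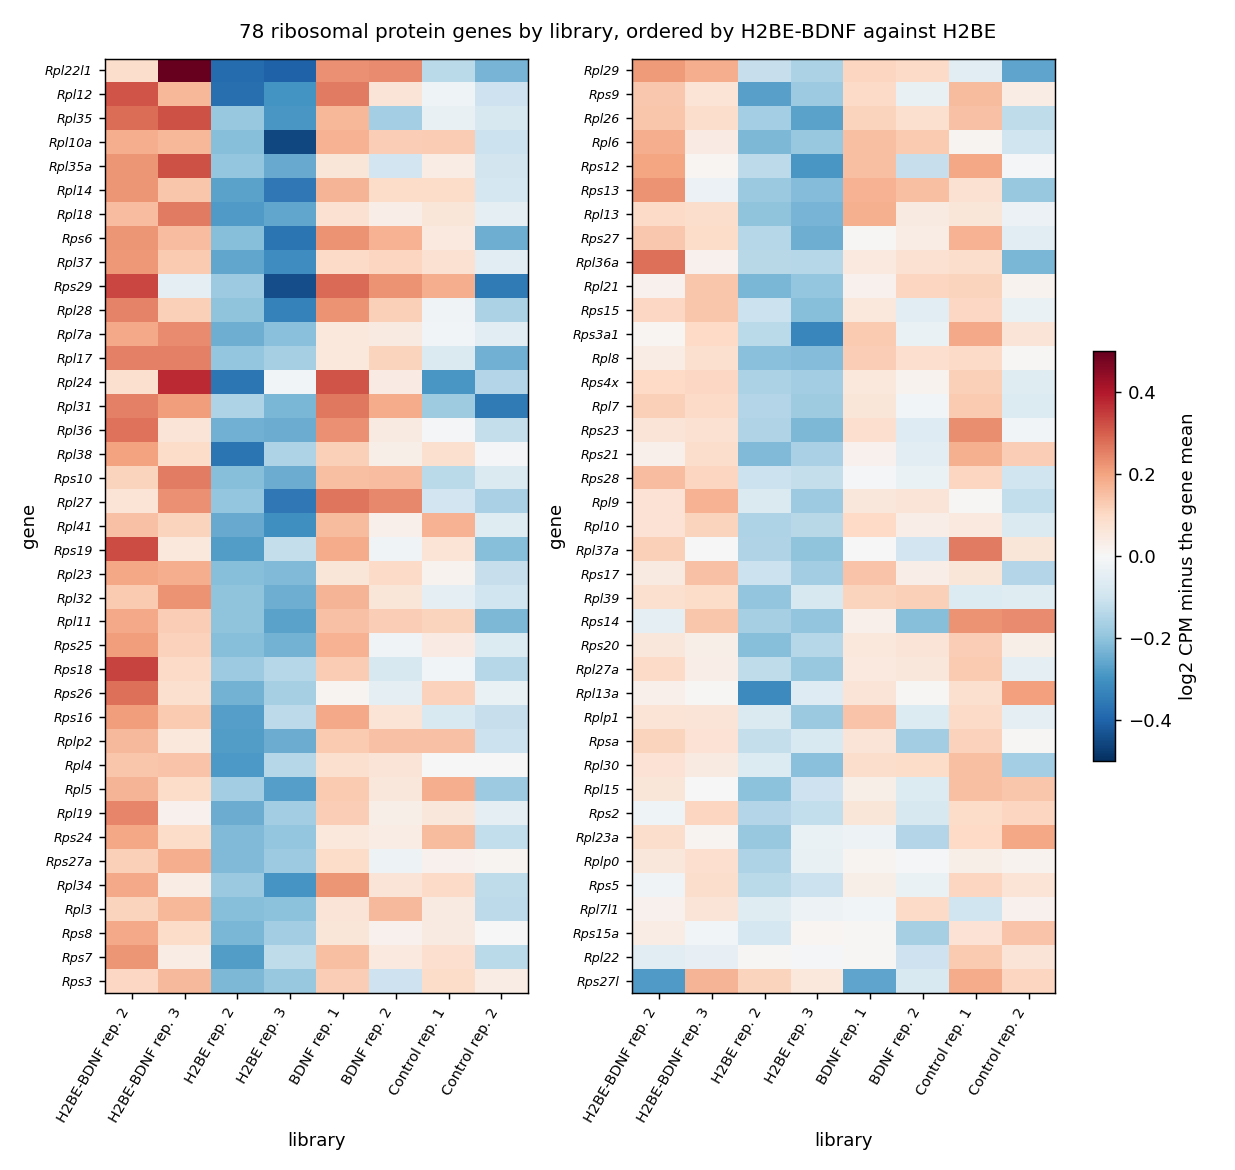
Log2 CPM of 78 of the 80 genes in each of 8 libraries minus the gene's mean over the libraries, ordered from the largest to the smallest log2 fold change of H2BE-BDNF against H2BE in both panels. The colour scale stops at 0.5 in either direction, and the H2BE columns are blue, below the gene mean, for nearly all rows but the lowest.

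With a pyrimidine run of at least 8 letters near the start, 30 of 33 genes rose in H2BE-BDNF against H2BE, with a median log2 change of 0.38. Without a run of that length, 22 of 27 rose, with a median of 0.28. Shorter runs were not searched for, so these 27 genes may still have a shorter tract. For the other letters searched, with and without a match, the numbers called up were 10 of 12 and 42 of 48 for CCGGAAGT, 2 of 6 and 50 of 54 for AAGATGGC, 5 of 6 and 47 of 54 for CACGTG, and 5 of 7 and 47 of 53 for TATAAA. The 6 genes with AAGATGGC had a median of 0.15, against 0.35 for the 54 without it. Of all tested genes 13.4% were called up, a share that was not counted with and without each match. All these counts leave out the ribosomal protein genes that have no start window. Among the sequences shown, Rpl7a has the longest run, of 19 letters, and changed by 0.44, while Rpl15 with 17 letters changed by 0.19 and Rps15a with 10 letters by 0.05. Rpl12, in which no such run was found, changed by 0.58. Across the 80 genes, the size of the rise had a Spearman rho of -0.16 with transcript length, 0.12 with GC content and -0.17 with mean level, as a description across genes that share the same libraries.

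Under the control virus the ribosomal protein genes changed in both directions with BDNF, and the numbers depended on the length and GC correction described below. With it 39 genes (48.75%) rose and 2 (2.5%) fell, against 16.8% of all tested genes called up and 13.9% down. Without it, as in the values that follow, 12 genes (15%) rose and 4 (5%) fell in BDNF against Control. Of all tested genes 16.8% were then called up and 14.6% down, so the share that rose was close to that of all genes. The median log2 change was 0.06, against -0.01 over all genes, with 51 genes above 0 and 29 below. Large-subunit genes had 9 up and 2 down with a median of 0.08, and small-subunit genes 3 up and 2 down with a median of -0.03. The number of genes called up was 3 without Control replicate 2 and 7 without BDNF replicate 1. The median was -0.0112 with replicate 3 in place of replicate 1 and -0.00178 at the lowest with 1 library left out. The number down was 11 without BDNF replicate 1, 1 without BDNF replicate 2 or Control replicate 1, and 2 without Control replicate 2, H2BE replicate 3 or either H2BE-BDNF replicate.

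Rpl31, at the rim of the exit tunnel, had the smallest p of this comparison. It had 97.5 and 92.3 CPM in BDNF against 71.7 and 63.4 CPM in Control libraries. The log2 change was 0.47 ± 0.07 (adjusted p = 0.000155), and the call was kept without any 1 of the 8 libraries. Rpl27 had 59.0 and 57.9 CPM in BDNF against 45.9 and 43.9 in Control libraries, a log2 change of 0.37 ± 0.09 (adjusted p = 0.00349), also called in all 8 of these fits. The small-subunit protein Rps10 had 114 CPM in both BDNF libraries against 93.3 and 97.35 in Control libraries, a log2 change of 0.26 ± 0.07 (adjusted p = 0.00745). It lost its call without Control replicate 1, at 0.22.

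Rpl29 had 146 and 145 CPM in BDNF against 130 and 113 in Control libraries, a log2 change of 0.245 ± 0.07 (adjusted p = 0.0113). Rpl17 changed by 0.22 ± 0.06 (adjusted p = 0.0135). Without Control replicate 2 both lost their call, at 0.16 for Rpl29 and 0.15 for Rpl17, and Rpl29 was at 0.38 after the length and GC correction described below. Rps6 rose by 0.26 ± 0.09 (adjusted p = 0.0273), and was not called without BDNF replicate 1 (0.23) or Control replicate 2 (0.15), or by DESeq2 (adjusted p = 0.0568). The other genes called up were Rpl22l1, Rpl28, Rps16, Rpl12, Rpl32 and Rpl6, with log2 changes from 0.18 to 0.40. DESeq2 called only 8 of the 12 genes, and Rpl32 was among those it did not call (adjusted p = 0.0713).

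Rps14 fell with BDNF under the control virus. In humans it is the gene behind the anaemia of the 5q deletion syndrome. It had 154 and 130 CPM in BDNF against 176.5 and 178 in Control libraries, a log2 change of -0.32 ± 0.08 (adjusted p = 0.00467), called without any 1 of the 8 libraries. That change was -0.20 without BDNF replicate 2. Rpl37a fell by 0.22 on the log2 scale (adjusted p = 0.03135), Rpl15 by 0.16 (adjusted p = 0.0445) and Rps15a by 0.18 (adjusted p = 0.0476). These calls were less firm: without 1 library Rpl37a was called in 6, Rpl15 in 2 and Rps15a in 1 of 8 fits. Rpl37a lost its call without BDNF replicate 2 (-0.17) or Control replicate 1 (-0.11), and without BDNF replicate 2 Rpl15 was at -0.11 and Rps15a at -0.09. Neither of these last genes was called without H2BE-BDNF replicate 2 or 3, H2BE replicate 3, or Control replicate 1 or 2, and Rps15a not without H2BE replicate 2. DESeq2 called none of the 3 (adjusted p = 0.113 for Rpl37a, 0.140 for Rpl15 and 0.142 for Rps15a). After the length and GC correction Rpl37a was at -0.11 (adjusted p = 0.217 in edgeR) and Rpl15 at -0.06 (0.477), neither called, while Rps15a was called at -0.23.

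All 12 genes that rose with BDNF under the control virus also rose under the H2BE virus, which is 100% of the first list and 18.5% of the 65 in the second. Since 81.2% of the 80 genes rose under the H2BE virus, a large overlap follows from that share. Over all tested genes 1163 rose in both comparisons, which is 51.4% of those that rose under the control virus and 64.3% of those under the H2BE virus. These 2 comparisons share no library. The difference of the 2 BDNF responses was tested on its own. It was above 0 for 77 of 80 genes, with a median of 0.28, against -0.01 over all genes. Only 6 passed the threshold, all with a larger change under the H2BE virus, where 0.327% of all tested genes were called in that direction and 0.825% in the other. At an unadjusted p under 0.05 there were 50, with no count over all genes to set beside it.

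The 6 genes were Rps14 with a difference of 0.55 ± 0.11, Rpl18 with 0.44 ± 0.09, Rpl7a with 0.36 ± 0.07 (adjusted p = 0.0397 each), Rps21 with 0.42 ± 0.09 (adjusted p = 0.0452), Rps26 with 0.46 ± 0.10 (adjusted p = 0.0456) and Rps9 with 0.41 ± 0.09 (adjusted p = 0.0461). For Rps14 the response was 0.23 under the H2BE virus against -0.32 under the control virus. Rps26, which lies where the mRNA leaves the small subunit, had 193 and 168.5 CPM in H2BE-BDNF against 135 and 142 in H2BE libraries. It had 161 and 154 CPM in BDNF against 173 and 156 in Control libraries, which overlap. The number called was 0 without either H2BE replicate, H2BE-BDNF replicate 3 or Control replicate 1, 1 without H2BE-BDNF replicate 2, 4 without BDNF replicate 2 or Control replicate 2, and 31 without BDNF replicate 1. The genes in these counts were not always among the 6, and without Control replicate 2 most were others. With 1 library left out the differences of these 6 genes stayed between 0.33 and 0.67. DESeq2 called 5 of them, with an adjusted p of 0.0506 for Rps21. After the correction for transcript length and GC content described below no ribosomal protein gene was called, and the median was 0.11. Under that correction 0 of all 13452 genes were called up and 2 down, against 44 and 111 without it.

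**Figure D3:**
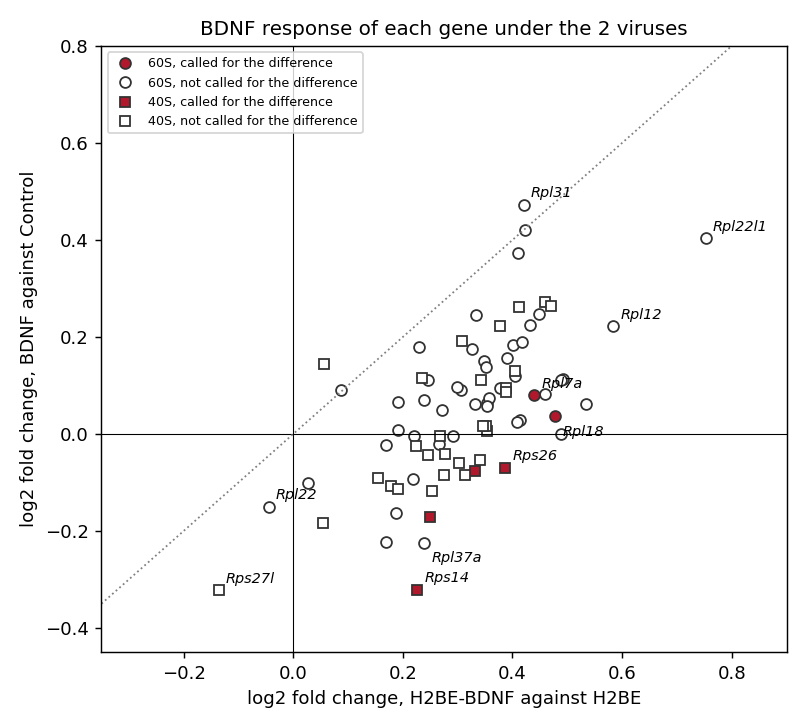
Log2 fold change of each of the 80 genes in BDNF against Control (vertical axis) and in H2BE-BDNF against H2BE (horizontal axis), with circles for large-subunit and squares for small-subunit genes, filled where the difference of the responses was called. The dotted line marks equal responses, and 77 of 80 genes lie to its right.

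The third comparison sets unstimulated neurons with the H2BE virus beside those with the control virus. In H2BE against Control, 16 genes fell and 0 rose, where 0.803% of all tested genes were called down and 1.33% up. The median log2 change was -0.21, or 0.864-fold, against 0.00 over all genes, and 75 of 80 genes were below 0. For 62 of 80 genes both H2BE libraries lay below both Control libraries, as was so for 25.2% of all genes. The large subunit had 9 of 48 genes down, the small subunit 7 of 32. At an unadjusted p under 0.05, 55 genes were lower and 1 was higher, but the share of all tested genes at that level was not counted.

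Rps14 again led, with 135 and 132 CPM in H2BE against 176.5 and 178 CPM in Control libraries, a log2 change of -0.41 ± 0.08 (adjusted p = 0.0196). Its levels in H2BE-BDNF libraries, 146 and 166 CPM, lay below Control as well. Rps21 had 90.8 and 94.5 CPM in H2BE against 120 and 115 in Control libraries, a log2 change of -0.35 ± 0.07 (adjusted p = 0.0197). Rpl41 had 399 and 385 CPM in H2BE against 536 and 457 in Control libraries, a log2 change of -0.34 ± 0.07 (adjusted p = 0.0197). The groups did not overlap for any of these genes, although the 2 Control libraries of Rpl41 lay far apart.

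Rps9, a protein of the mRNA entry channel, had 165 and 175 CPM in H2BE against 222 and 204 in Control libraries, a log2 change of -0.33 ± 0.07 (adjusted p = 0.0207). Rpl8 had 247 and 246 CPM in H2BE against 305 and 286 in Control libraries, a log2 change of -0.27 ± 0.05 (adjusted p = 0.023). Rpl15 had 166 and 178 CPM in H2BE against 212.5 and 211 in Control libraries, a log2 change of -0.30 ± 0.06 (adjusted p = 0.0233). The other genes called down were Rps3a1, Rpl21, Rpl37a, Rpl14, Rpl18, Rps20, Rps3, Rpl4, Rpl37 and Rps2, with changes between -0.36 and -0.21.

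These falls depended on single libraries. The number called down was 0 without either H2BE replicate or without Control replicate 1, and 35 without either BDNF replicate. It was also 0 after each library's counts were corrected for transcript length and GC content, when the median became -0.09. Over all tested genes the calls down then numbered 2 (0.0149%), against 108 without the correction, and the calls up 21, against 179, so the loss of calls was not confined to the ribosomal protein genes. Ribosomal protein transcripts are short, with 59 of 80 under 1000 bases and a median of 751 bases, against 2896 bases over the tested genes with a length. The slope of log2 counts on transcript length over the other genes, per doubling of length and relative to the mean of the libraries, was -0.001 and -0.00546 in H2BE-BDNF libraries, 0.0176 and 0.017 in H2BE, 0.0201 and 0.0424 in BDNF, and -0.057 and -0.0336 in Control. The Control libraries therefore held relatively more counts on short transcripts than all other libraries.

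The same correction left the rise in H2BE-BDNF against H2BE in place, with 54 genes up, 52 of them among the 65, and a median of 0.29, where 14.1% of all tested genes were called up. In BDNF against Control it raised the number of genes called up to 39, the original 12 among them, with 2 down and a median of 0.17, where 16.8% of all tested genes were called up and 13.9% down. All tested genes had medians between -0.01 and 0.01 in each of these comparisons, with and without the correction. The correction was also fitted without the ribosomal protein genes, so that they could not set it themselves. It then gave 62 genes up in H2BE-BDNF against H2BE, where 14.3% of all genes were called up, and 42 up in BDNF against Control, where 16.9% were. In H2BE against Control it gave 0 down, where 0.0223% of all genes were called down.

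**Figure D4:**
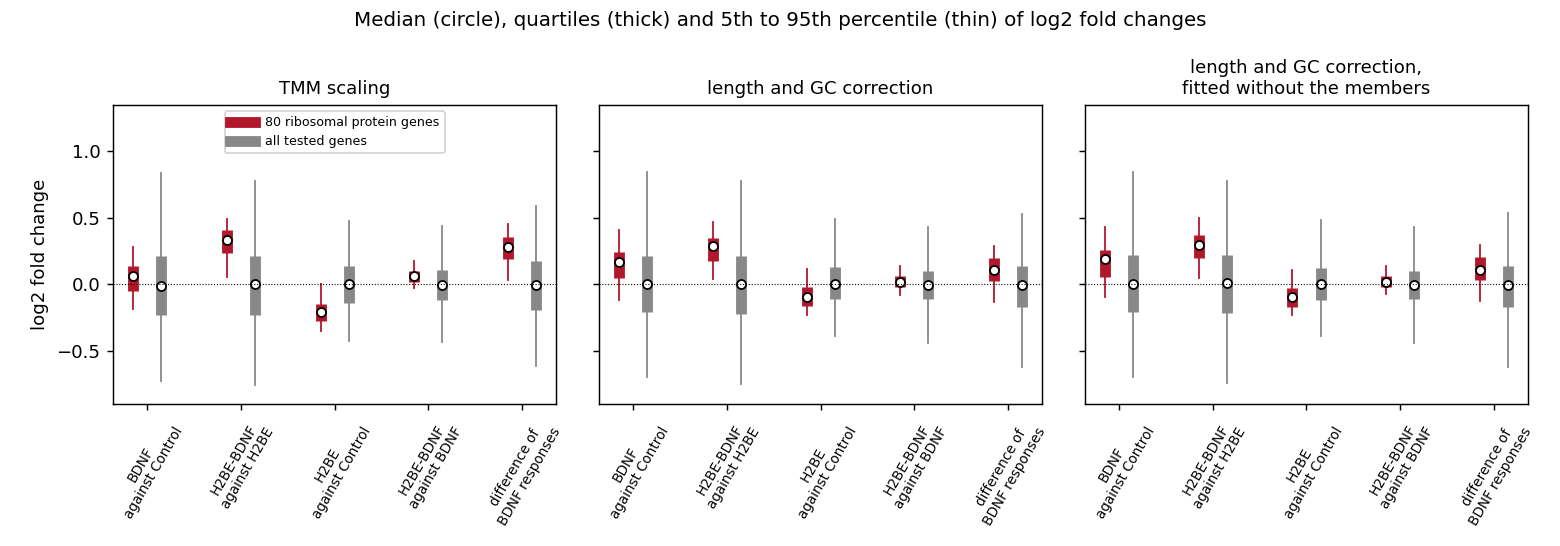
Distribution of log2 fold changes of the 80 ribosomal protein genes (red) and of all tested genes (grey) in the 5 comparisons, under the usual TMM scaling (left), with the length and GC correction (middle), and with that correction fitted without the 80 genes (right). The red median of H2BE-BDNF against H2BE stays near 0.3 in all panels, while those of H2BE against Control and of the difference move toward 0.

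With BDNF given under both viruses no ribosomal protein gene passed the test. In H2BE-BDNF against BDNF, 0 genes were called in either direction by edgeR's quasi-likelihood test and 0 by DESeq2, where 0.0149% of all tested genes were called up and 0.00743% down. At an unadjusted p under 0.05, 8 genes were higher and 0 lower, and all tested genes were not counted at that level. The median log2 change was 0.06, against -0.01 over all genes, and the largest was that of Rpl35 at 0.29. The number called up was 6 without BDNF replicate 1 and 0 without any other 1 library. Against a median standard error of 0.07, most of these changes were within the error of a single gene.

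Some ribosomal proteins have a paralog that can take their place in the ribosome. Rpl22l1, the paralog of Rpl22, had the largest rise of all 80 genes in H2BE-BDNF against H2BE. It had 57.6 and 82.3 CPM in H2BE-BDNF, 41.5 and 40.9 in H2BE, 63.4 and 63.7 in BDNF, and 49.3 and 46.1 in Control libraries. All BDNF-treated libraries lay above all untreated ones, and the 2 H2BE-BDNF libraries were far apart. The log2 change was 0.75 ± 0.13 in H2BE-BDNF against H2BE (adjusted p = 0.000529) and 0.40 ± 0.12 in BDNF against Control (adjusted p = 0.0161). Without H2BE-BDNF replicate 3 the first was 0.48 and still called. The second lost its call without Control replicate 1 (0.46) or Control replicate 2 (0.36).

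Rpl22 itself had 123 and 124 CPM in H2BE-BDNF, 128 and 127 in H2BE, 128 and 118 in BDNF, and 139 and 133 in Control libraries, and was called in no comparison. Per kilobase, Rpl22l1 stood at 174% and 247% of Rpl22 in H2BE-BDNF, 120.5% and 120% in H2BE, 184% and 200% in BDNF, and 131% and 129% in Control libraries. The ratio was thus higher with BDNF in every library under either virus. Its size rests on the transcript models used for the 2 lengths.

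Rps27l, which p53 is known to induce, is the paralog of Rps27. It had 13.0 and 17.9 CPM in H2BE-BDNF, 17.1 and 16.47 in H2BE, 13.2 and 15.1 in BDNF, and 18.04 and 17.1 in Control libraries. Its log2 change was -0.32 ± 0.15 in BDNF against Control (adjusted p = 0.111) and -0.14 ± 0.17 in H2BE-BDNF against H2BE. Rps27 rose in H2BE-BDNF against H2BE, with 97.7 and 94.7 CPM in H2BE-BDNF against 80.6 and 75.02 in H2BE libraries, a log2 change of 0.30 (adjusted p = 0.0141). That call was lost without H2BE-BDNF replicate 2 (0.28) or H2BE replicate 3 (0.26). With length and GC content corrected for, Rps27 was at 0.20 and not called (adjusted p = 0.0545).

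**Figure D5:**
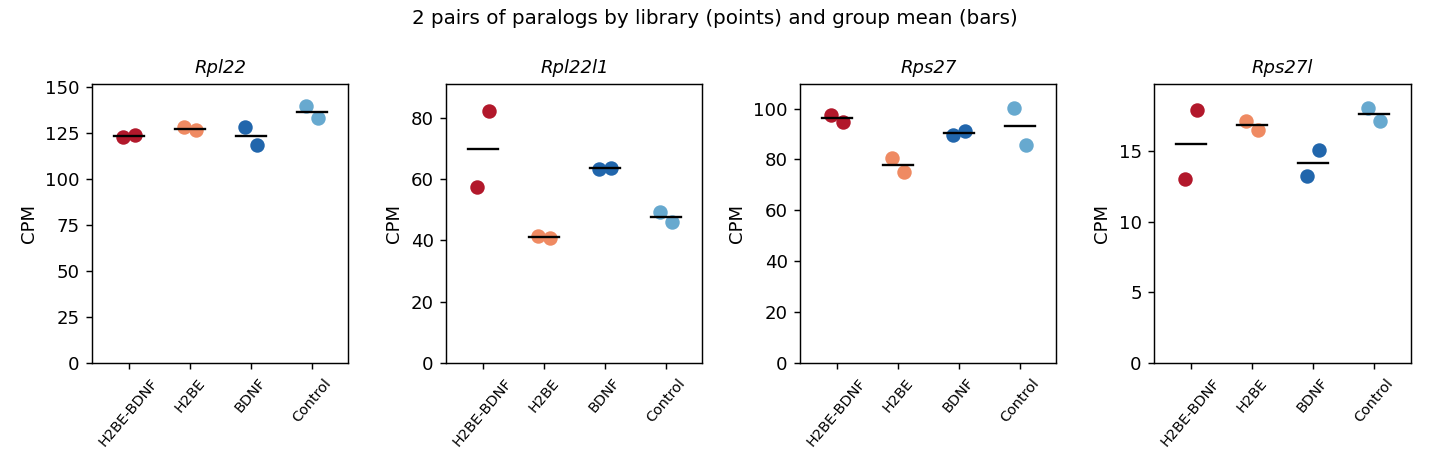
CPM of Rpl22 and its paralog Rpl22l1 and of Rps27 and its paralog Rps27l in each of 8 libraries (points), with the mean of each group (bars), on axes from 0. The Rpl22l1 points of both BDNF-treated groups, 57.6 to 82.3, lie above the 40.9 to 49.3 of the untreated groups.

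Rpl7l1, a paralog of Rpl7, was called in no comparison and stood between 18.04% and 23.47% of Rpl7 per kilobase in the 8 libraries. Rpl7 rose in H2BE-BDNF against H2BE by 0.27 in log2 (adjusted p = 0.00737), a call lost without H2BE replicate 3 (0.25). Rpl36al, which the symbol pattern leaves out, rose by 0.32 (adjusted p = 0.0181), close to the 0.30 of Rpl36a, and held 55.8% to 72.7% of its level per kilobase. Rps4l, a copy of Rps4x that has no symbol in the deposited table and is annotated as a transcribed processed pseudogene, had 1203 counts over the 8 libraries. Its log2 change was 0.23 ± 0.16 in H2BE-BDNF against H2BE (adjusted p = 0.311) and -0.21 ± 0.14 in BDNF against Control (adjusted p = 0.277). Of 3 paralogs known from other tissues few or no counts were found, where the floor is 3 counts in a library and allows for counting error only. Rpl10l, best known from the testis, had 0 counts over the 8 libraries, Rpl39l had 19 and the muscle paralog Rpl3l 31.

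Other ribosomal proteins have symbols outside the pattern. Among them Rack1, Fau and Rpl36al rose in H2BE-BDNF against H2BE. Rack1, a signalling scaffold on the small subunit, rose by 0.43 ± 0.06 (adjusted p = 3.63e-05), and Fau, made as a fusion with a ubiquitin-like protein, by 0.23 ± 0.07 (adjusted p = 0.0163). DESeq2 called neither Fau (adjusted p = 0.0594) nor Rpl36al (0.0577), and edgeR did not call Fau without either H2BE-BDNF replicate or H2BE replicate 2, nor Rpl36al without H2BE-BDNF replicate 3 or H2BE replicate 3. In BDNF against Control only Rack1 of these 3 rose, by 0.24 (adjusted p = 0.00343). In H2BE against Control the log2 changes were -0.13 for Rack1 (adjusted p = 0.221), -0.14 for Fau (0.265) and -0.06 for Rpl36al (0.779), past no threshold.

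The factors that work with the ribosome were counted from lists of known members, to be read against the 13.4% of all tested genes called up and 12.3% down in H2BE-BDNF against H2BE and the 16.8% up and 14.6% down in BDNF against Control. Of 12 elongation and termination factors 9 rose and 1 fell in H2BE-BDNF against H2BE, with a median of 0.26, and 6 rose and 1 fell in BDNF against Control, with a median of 0.10. Eif5a rose by 0.42 (adjusted p = 2.13e-05) under the H2BE virus and by 0.20 (adjusted p = 0.00648) under the control virus, where it was not called without either Control replicate. Of 39 initiation factors 23 rose and 1 fell under the H2BE virus, and 8 rose (20.5%) and 5 fell under the control virus, close to all genes. Eif4g1, the scaffold of the cap-binding complex, rose by 0.32 (adjusted p = 9.10e-05) under the H2BE virus and by 0.35 (adjusted p = 2.10e-05) under the control virus.

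Among 77 ribosome biogenesis factors 23 rose (29.9%) and 0 fell in H2BE-BDNF against H2BE. In BDNF against Control 14 rose (18.2%), close to the share of all genes, and 2 fell (2.6%). Ftsj3, an rRNA methyltransferase, rose by 0.62 (adjusted p = 0.000119) under the H2BE virus, and Mdn1, which removes assembly factors from the large subunit, by 0.58 (adjusted p = 1.98e-05) under the control virus. With length and GC content corrected for, Mdn1 was at 0.21 (adjusted p = 0.0321). Of 20 subunits and factors of RNA polymerase I, 4 rose (20%) and 1 fell (5%) under the H2BE virus and 2 rose and 2 fell (10% each) under the control virus. Of 15 other mRNAs with a pyrimidine tract and snoRNA host genes, 5 rose (33.3%) and 0 fell under the H2BE virus, and 4 rose (26.7%) and 3 fell (20%) under the control virus. Of 16 chaperones and importers of ribosomal proteins, 7 rose (43.75%) and 1 fell (6.25%) under the H2BE virus, and 4 rose (25%) and 3 fell (18.75%) under the control virus.

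The 32 genes of mTORC1, its regulators and Myc family control moved in both directions, with 9 up (28.1%) and 7 down (21.9%) in H2BE-BDNF against H2BE and 13 up (40.6%) and 7 down (21.9%) in BDNF against Control. In edgeR's test Rps6ka5 changed by -1.63 (adjusted p = 3.40e-06) under the H2BE virus and by -1.37 (adjusted p = 2.08e-06) under the control virus. Sesn1 changed by -0.96 (adjusted p = 3.64e-05) and -0.72 (adjusted p = 0.000135) in these comparisons. Sesn2, which holds back mTORC1 when leucine is short, rose by 0.96 (adjusted p = 2.71e-07) under the control virus. The response of Sesn2 was lower by 0.54 under the H2BE virus (difference -0.54, adjusted p = 0.0449). With length and GC content corrected for, this difference was -0.49 and not called (adjusted p = 0.217), nor was it called without any 1 of the H2BE-BDNF, H2BE or Control libraries. Of 14 p53 pathway genes 3 rose (21.4%) and 2 fell (14.3%) under the H2BE virus and 6 rose (42.9%) and 4 fell (28.6%) under the control virus. Cdkn1a, a cell cycle inhibitor, rose by 1.17 (adjusted p = 7.18e-08) and 0.98 (adjusted p = 1.13e-07) in these comparisons.

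Without BDNF, few of these listed genes differed between the viruses. In H2BE against Control, Npm1, a nucleolar carrier of ribosomal proteins, fell by 0.31 (adjusted p = 0.0143) and the chaperonin subunit Cct4 by 0.24 (adjusted p = 0.0452), while the initiation factor Eif4g3 rose by 0.27 (adjusted p = 0.0194). Npm1 had a larger BDNF response under the H2BE virus, by 0.38 (adjusted p = 0.0397), and so did the initiation factor Eif3e, by 0.41 (adjusted p = 0.0452). None of these 5 calls held after the length and GC correction, when Npm1 was at -0.19, Cct4 at -0.19 and Eif4g3 at 0.18 in H2BE against Control (adjusted p = 0.14 each), and the differences were 0.22 for Npm1 (adjusted p = 0.313) and 0.22 for Eif3e (0.354). They were also lost without either H2BE replicate or without Control replicate 1, and were called in 2 to 5 of the 8 fits with 1 library left out. These lists were compared by count only, and none is called different from the other genes.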

How the data were processed

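The deposited raw table gives read counts per Ensembl gene for 10 polyadenylated RNA libraries made with an NEBNext Ultra II kit, per the labels' protocols. The deposited normalized table holds signal values, which are those counts divided by 1 size factor per library, as tested on the files, and it was used for symbols only. Build mm10, deepTools, SAMtools and DESeq2 are named in the submitters' processing notes. No version, aligner, counter, annotation or strand setting is given in the sources used here. Control replicate 3 and BDNF replicate 3 were left out because each is a subset of replicate 1 (73.7% and 61.9% of its counts). Counts of 8 libraries were filtered with filterByExpr (minimum count 10, minimum total 15), scaled by TMM and fitted with a mean per group by edgeR's quasi-likelihood test (edgeR 4.0.16, limma 3.58.1, R 4.3.3). P-values were adjusted by Benjamini and Hochberg over 13452 genes in each of 5 comparisons. Member levels and paralog ratios are TMM-scaled CPM, while marker sums are unscaled CPM. With 2 libraries per group the precision rests on the spread shared over all groups; the lowest count of any ribosomal protein gene in a library was 30 (Rpl24). Transcript lengths and GC content are from GENCODE M21, as the transcript of median length in the best annotated class, and start windows are from RefSeq. Alternatives were DESeq2 1.42.0, other scalings, filters and samples, a replicate block, thinning, leaving out each library, and offsets for length and GC content (lowess, span 0.3). Text names up to 6 genes per direction with the smallest p, those of the largest p, paralogs, known roles and extreme levels, and up to 3 called genes per list; the full call lists were added for completeness. Results of some genes are not reported here by name, though counts and sums over all members include them. The script was tested on simulated counts. The members and lists were chosen with earlier results of these data known.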

Additional observations from a re-analysis of the deposited data

Results flagged for a closer look

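The BDNF response differed between the viruses, by the test of the difference itself, for 6 ribosomal protein genes. The log2 response under the H2BE virus minus that under the control virus was 0.547 for Rps14, 0.456 for Rps26, 0.441 for Rpl18, 0.421 for Rps21, 0.408 for Rps9 and 0.359 for Rpl7a. None of the 6 was called without Control replicate 1, when their adjusted p in edgeR's quasi-likelihood test ran from 0.253 to 0.339, or after the length and GC correction. With 1 library left out their differences stayed between 0.33 and 0.67, and DESeq2 called 5 of them. Under the correction the differences ran from 0.22 to 0.39, and 0 of all tested genes were called up. The part of transcript length in these differences was not tested further.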

How the results depend on the processing

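The rise in H2BE-BDNF against H2BE held under every alternative run, with 52 to 69 genes up (DESeq2 the lowest) and 45 to 70 with 1 library left out, 0 down throughout, and a median between 0.295 and 0.344 with 1 library left out, 0.299 with upper quartile factors, 0.286 with the length and GC correction, 0.285 with the replicate block added to it and 0.297 with the correction fitted without the members. BDNF against Control had 6 genes up with upper quartile factors, and 39, 37 and 42 under these same 3 corrections, against 12. It had 7 down by total counts, 8 with upper quartile factors, 12 with all 10 libraries as replicates, 9 with replicate 3 in place of replicate 1, 1 by DESeq2 or with only the compared groups in the fit, and 2 with no low-count filter, the replicate block, thinned counts or any of the 3 corrections, against 4. Its median was 0.176 with block and correction and 0.191 with the correction fitted without the members. With 1 library left out it had 3 to 14 up, 1 to 11 down and a median from -0.00178 to 0.126, below 0 also with replicate 3 in place of replicate 1 (-0.0112). H2BE against Control had 48 down with all 10 libraries, 41 with only the compared groups, 2 with the replicate block and 0 under each of the 3 corrections, against 16. It had 1 up with no low-count filter, all 10 libraries, replicate 3 in place of replicate 1, only the compared groups, thinned counts or any of the 3 corrections. Its median was -0.0916 with the correction, -0.0409 with the block added and -0.0952 when fitted without the members. With 1 library left out it had 0 to 1 up, 0 to 35 down and a median from -0.259 to -0.12. H2BE-BDNF against BDNF had 1 up and a median of 0.13 with the replicate block, and 0 to 6 up, 0 down and a median from 0.00736 to 0.0885 with 1 library left out. The difference of the responses had 20 up with no low-count filter or with replicate 3 in place of replicate 1, 38 with all 10 libraries, 14 with the replicate block, 2 with thinned counts and 0 under each of the 3 corrections, against 6. Its median was 0.106, 0.101 and 0.111 under the corrections. With 1 library left out it had 0 to 31 up, 0 down and a median from 0.187 to 0.34. The cause of these moves was not tested. The fit of all 10 libraries counts Control replicate 3 and BDNF replicate 3, subsets of replicate 1, as separate samples, so its calls rest on repeated samples. The share of all tested genes called in the same fit is not given beside most of these counts. They cannot be read as particular to the ribosomal protein genes. Whether replicate numbers pair the samples could not be decided, since each check rests on the difference of 2 libraries per group. Deviations of same-numbered libraries had a correlation of -0.105 between Control and BDNF and -0.333 between H2BE and H2BE-BDNF over 9889 genes. A block on crossed numbers, chosen after seeing the data like the correction fitted without the members, gave 13 up and 4 down, 61 up, and 0 genes for the difference. A fit that leaves a group with 1 library assumes that it varies like the others. With 2 libraries per group, changes near the median standard errors of 0.07 to 0.11 were not resolved gene by gene.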
